A study of Homo sapiens with 4 samples.

Results

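The genes described here are 9 members of the class I antigen presentation pathway, HLA-B, HLA-C, HLA-E, B2M, TAP1, TAP2, TAPBP, NLRC5 and ERAP1. They were chosen by symbol, and each has 1 row among the 16057 genes of the deposited table. HLA-B (NM_005514), HLA-C (NM_001243042), HLA-E (NM_005516), TAP1 (NM_000593), TAP2 (NM_000544) and TAPBP (NM_003190) lie in the MHC on chromosome 6, B2M (NM_004048) on chromosome 15, NLRC5 (NM_001330552) on chromosome 16 and ERAP1 (NM_001040458) on chromosome 5, and the values are for whole transcripts. RNA sequencing measured their transcripts in MM.1S, a human cell line established from multiple myeloma, a cancer of plasma cells. One group was given JG342, a compound that inhibits the HSP70 chaperone allosterically, for 26 h at 350 nM, and the other was given DMSO for as long. Each group holds 2 libraries, described by the submitters as biological duplicates and numbered 1 and 2. The comparison asks how these transcripts differ after JG342, in 1 line at 1 dose and 1 time.

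Class I molecules show fragments of a cell's own proteins to CD8 T cells. A polymorphic heavy chain pairs with beta-2-microglobulin in the endoplasmic reticulum and receives a peptide that the TAP transporter brings in from the cytosol. Tapasin holds the empty heavy chain at TAP, and aminopeptidases of the endoplasmic reticulum trim the peptides to length. NLRC5 drives transcription of these genes as a coactivator, and interferons raise them further.

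Values are TPM, that is, reads per transcript length scaled to a fixed library total, so levels of different genes can be compared. Library totals lay between 994463 and 994718 TPM, and the number of reads behind a value is not kept in this unit. On log2(TPM + 1), limma tested the 12042 genes whose mean reached 1 TPM, and 2221 of them (18.4%) passed at a Benjamini-Hochberg adjusted p under 0.05. That is 1304 higher and 917 lower after JG342, or 966 higher and 1200 lower after scaling the libraries to equal medians. A fit that keeps the replicate number as a block called 4207 (34.9%). All 9 plasma cell markers, among them SDC1, TNFRSF17 and IRF4, had means above 1 TPM. Their sum was 14836 and 14570 TPM with DMSO and 10667 and 10029 TPM with JG342, most of it JCHAIN, which fell from 9907 and 10384 TPM to 5732 and 5431 TPM (adjusted p 0.00117 by limma). The other 8 markers summed to 4928 and 4187 TPM with DMSO and to 4936 and 4598 TPM with JG342. Of these, IRF4 rose from 353 TPM in both DMSO libraries to 589 and 615 TPM (adjusted p 0.000986 by limma). PRDM1 rose from 176.5 and 154 TPM to 220.2 and 205 TPM (adjusted p 0.0410 by limma). TNFRSF17 went the other way, from 761 and 581.5 TPM with DMSO to 517 and 463 TPM with JG342, without overlap. SDC1 went from 379 and 281 TPM to 308 and 243 TPM, with overlap. The groups also overlapped for CD38, SLAMF7, XBP1 and MZB1. Mature B cell and stromal markers summed to at most 0.26 TPM in each library, with 2 of 4 and 3 of 4 in the table, and T cell, monocyte and epithelial lists to between 4.42 and 46.2 TPM. The dendritic cell list went from 16.0 and 15.1 TPM to 25.1 and 40.5 TPM, nearly all of it CLEC9A with CD1C and FCER1A near 0, and the NK cell list from 29.02 and 28.84 TPM to 37.5 and 36.2 TPM. The part of these shifts in the results below was not tested.

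Of the 9 members, 1 fell and none rose. TAP2 was lower after JG342 by 0.48 on the log2 scale, while the other 8, from the heavy chains to NLRC5, did not pass the test. Over all genes tested, 7.62% passed as lower and 10.8% as higher. The median log2 fold change of the members was −0.03, against 0.03 for all genes tested, and 5 of the 9 were below 0, as were 46.5% of all genes tested. DMSO and JG342 values did not overlap for 2 members, TAP2 and ERAP1, where 62.1% of all genes tested showed no overlap (28.2% with JG342 lower, as for TAP2). With the replicate block 3 members were called, HLA-B and ERAP1 as higher and TAP2 as lower, against 19.2% and 15.7% of all genes tested. In these bulk libraries, a change in the share of cells that hold a transcript and a change in its amount per cell cannot be told apart.

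**Figure D1:**
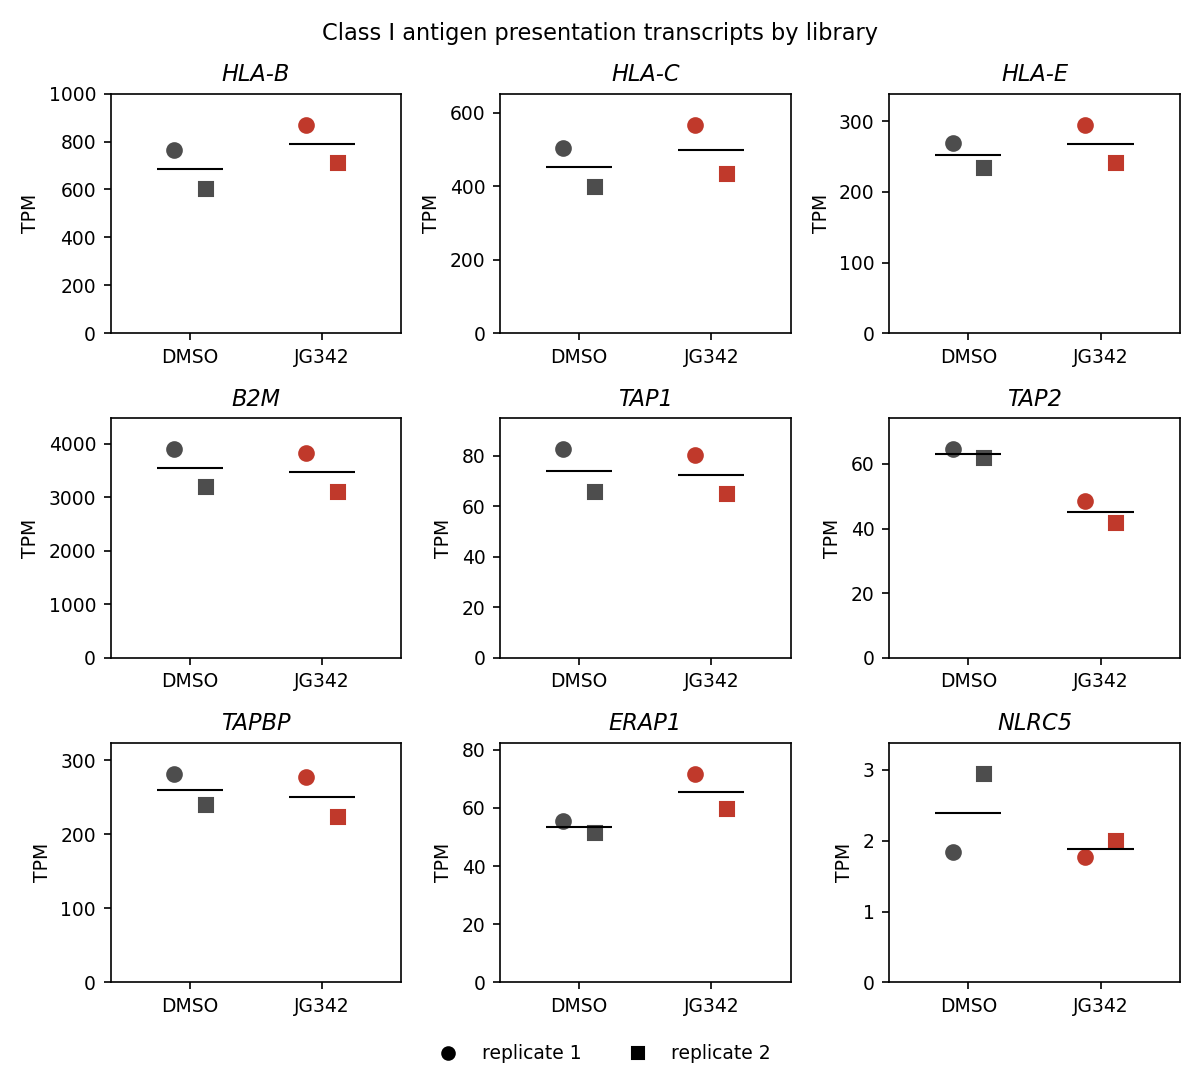
TPM of each of the 9 members in the 4 libraries (circles: replicate 1, squares: replicate 2, lines: group means; every axis starts at 0). TAP2 drops from 64.5 and 61.9 TPM with DMSO to 48.4 and 41.6 TPM with JG342. For all members but NLRC5, TAP2 among them, replicate 1 lies above replicate 2 in both groups.

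Heavy chains carry the peptide groove. HLA-B stood at 764 and 602 TPM in DMSO replicates 1 and 2 and at 869.8 and 710.4 TPM in JG342 replicates 1 and 2. The groups overlapped, since DMSO replicate 1 was above JG342 replicate 2. The log2 fold change was 0.21 ± 0.14 SE (95% interval −0.10 to 0.52, limma adjusted p 0.315). HLA-B passed with the replicate block (limma adjusted p 0.0181), but not with the block and scaling to equal medians together (0.259).

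HLA-C, the class I chain that also serves as a main ligand of killer cell immunoglobulin-like receptors, had 504 and 399 TPM with DMSO and 567 and 432 TPM with JG342. Its groups overlapped too, with a log2 fold change of 0.14 ± 0.15 SE (95% interval −0.20 to 0.48, limma adjusted p 0.544). HLA-E, which presents signal peptides of other class I chains to the receptor NKG2A, had 269.7 and 234 TPM with DMSO and 295 and 240.2 TPM with JG342. The difference for HLA-E was 0.08 ± 0.12 SE (95% interval −0.19 to 0.36, limma adjusted p 0.669).

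The class I transcripts resemble each other, which leaves it uncertain how reads were divided among them. The HLA-B transcript matched that of HLA-C at 91.3% identity over 99.1% of its length, and that of HLA-E at 84.1% over 83.4%. The table lists each gene with 1 reference transcript, while these genes are highly polymorphic, and the alleles of MM.1S are not analysed here. The ratio of HLA-B to HLA-C was 1.52 and 1.51 with DMSO and 1.54 and 1.64 with JG342, a difference of 0.07 on the log2 scale (exact two-sided permutation p = 0.333, the smallest that 2 libraries against 2 allow).

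Beta-2-microglobulin, the light chain shared by all class I molecules, was the most abundant member. B2M reached 3894 and 3200.5 TPM with DMSO and 3827 and 3098 TPM with JG342, so that each replicate 1 library was above both replicate 2 libraries. The log2 fold change was −0.04 ± 0.13 SE (95% interval −0.34 to 0.27, limma adjusted p 0.879).

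The TAP transporter is a dimer of the TAP1 and TAP2 proteins, encoded near each other in the class II region of the MHC. TAP2 had 64.5 and 61.9 TPM with DMSO and 48.4 and 41.6 TPM with JG342. Both JG342 libraries lay below both DMSO libraries, and the means were 63.2 ± 1.85 TPM and 45.0 ± 4.79 TPM (SD, n = 2). TAP2 fell by 0.48 ± 0.11 SE on the log2 scale (95% interval −0.74 to −0.23, limma adjusted p 0.0198), by 0.41 in pair 1 and by 0.56 in pair 2.

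TAP1 stayed within its replicate spread. It had 82.5 and 65.4 TPM with DMSO and 80.3 and 64.7 TPM with JG342, and the log2 fold change was −0.03 ± 0.14 SE (95% interval −0.35 to 0.30, limma adjusted p 0.918). The ratio of TAP1 to TAP2 was 1.28 and 1.06 with DMSO and 1.66 and 1.56 with JG342, higher in both JG342 libraries. The log2 ratio was 0.47 higher, with an exact two-sided permutation p of 0.333, the smallest that test can give here, and a difference between the subunits is not shown by it.

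The call for TAP2 depended on single libraries. Its limma adjusted p was 0.106 without DMSO replicate 1, 0.0901 without DMSO replicate 2 and 0.0823 without JG342 replicate 2, and it was 0.0676 with no filter on low values and 0.0561 without the mean-variance trend. Over all alternatives it ran from 3.39e-05 to 0.106, with a negative fold change in each. In GENCODE release 29, 36.2% of the TAP2 transcript is shared with exons of the locus AL669918.1 on the same strand, and 15.4% of the TAP1 transcript lies opposite exons of PSMB8-AS1, so reads of these loci may be mixed into both values.

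**Figure D2:**
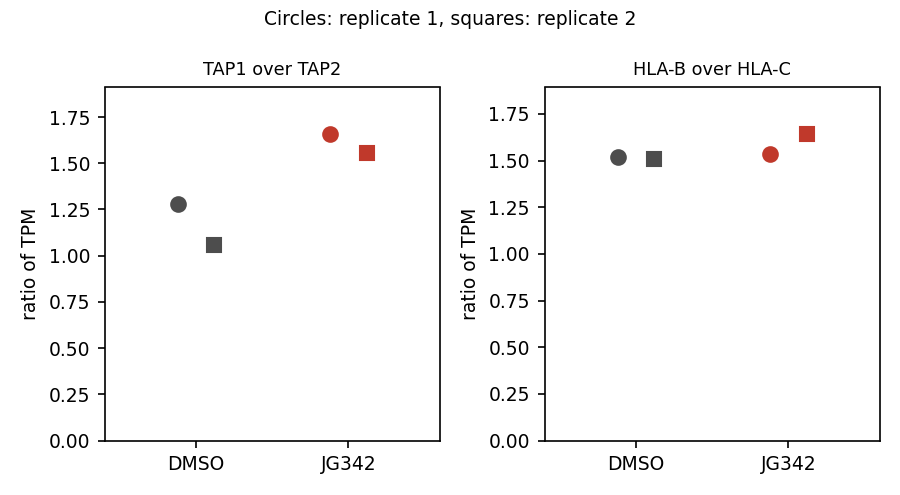
Ratio of TAP1 to TAP2 and of HLA-B to HLA-C in each library (circles: replicate 1, squares: replicate 2; axes start at 0). The TAP1 to TAP2 ratio is 1.28 and 1.06 with DMSO against 1.66 and 1.56 with JG342, and the HLA-B to HLA-C ratio is 1.52 and 1.51 against 1.54 and 1.64.

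Tapasin bridges TAP and the empty class I molecule. TAPBP had 281.5 and 239 TPM with DMSO and 277 and 224 TPM with JG342, and the groups overlapped. Its log2 fold change was −0.06 ± 0.13 SE (95% interval −0.35 to 0.23, limma adjusted p 0.783).

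ERAP1, which trims peptides in the endoplasmic reticulum, was the member with the largest positive fold change. It had 55.4 and 51.5 TPM with DMSO and 71.6 and 59.5 TPM with JG342, with both JG342 libraries higher. The log2 fold change of 0.29 ± 0.12 SE (95% interval 0.01 to 0.56) did not pass, with a limma adjusted p of 0.132. It passed with the replicate block (limma adjusted p 0.0193) and not with the block and scaling to equal medians (0.0681). ERAP2, a related trimming enzyme, had a log2 fold change of −0.35 ± 0.13 SE in the opposite direction (limma adjusted p 0.0968, 0.00883 with the replicate block).

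NLRC5 was the least abundant member. The coactivator had 1.84 and 2.94 TPM with DMSO and 1.77 and 1.99 TPM with JG342, so that DMSO replicate 2 alone stood apart. Its log2 fold change was −0.22 ± 0.22 SE (95% interval −0.72 to 0.28, limma adjusted p 0.531), an interval wide enough to hold a fall larger than that of TAP2.

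Ordered by the DMSO means, the levels ran from B2M (3547 TPM) through HLA-B (683), HLA-C (451), TAPBP (260.5), HLA-E (252), TAP1 (74.0), TAP2 (63.2) and ERAP1 (53.4) to NLRC5 (2.39). TAPBP and HLA-E overlapped over the DMSO libraries, and the other neighbours did not. With JG342 the order changed in the lower part, where ERAP1 (65.6 TPM) stood above TAP2 (45.0 TPM) without overlap and overlapped TAP1 (72.5 TPM). HLA-E (268 TPM) and TAPBP (251 TPM) again overlapped.

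Most members differed more between replicate numbers than between treatments. For 8 of the 9, all but NLRC5, replicate 1 was above replicate 2 in both treatments, which held for 27.6% of all genes tested. The median difference of replicate 1 minus replicate 2 was 0.23 in DMSO and 0.30 in JG342 on the log2 scale, against −0.04 and 0.03 over all genes tested. It was 0.28 and 0.30 for B2M, 0.34 and 0.39 for HLA-C and 0.33 and 0.31 for TAP1. For 7 members, all but TAP2 and ERAP1, the mean replicate difference exceeded the treatment difference in size, as it did for 29.7% of all genes tested. No test of the replicate number was made. What the replicate numbers stand for beyond a shared prefix in the sample descriptions is not given in the sources used here.

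**Figure D3:**
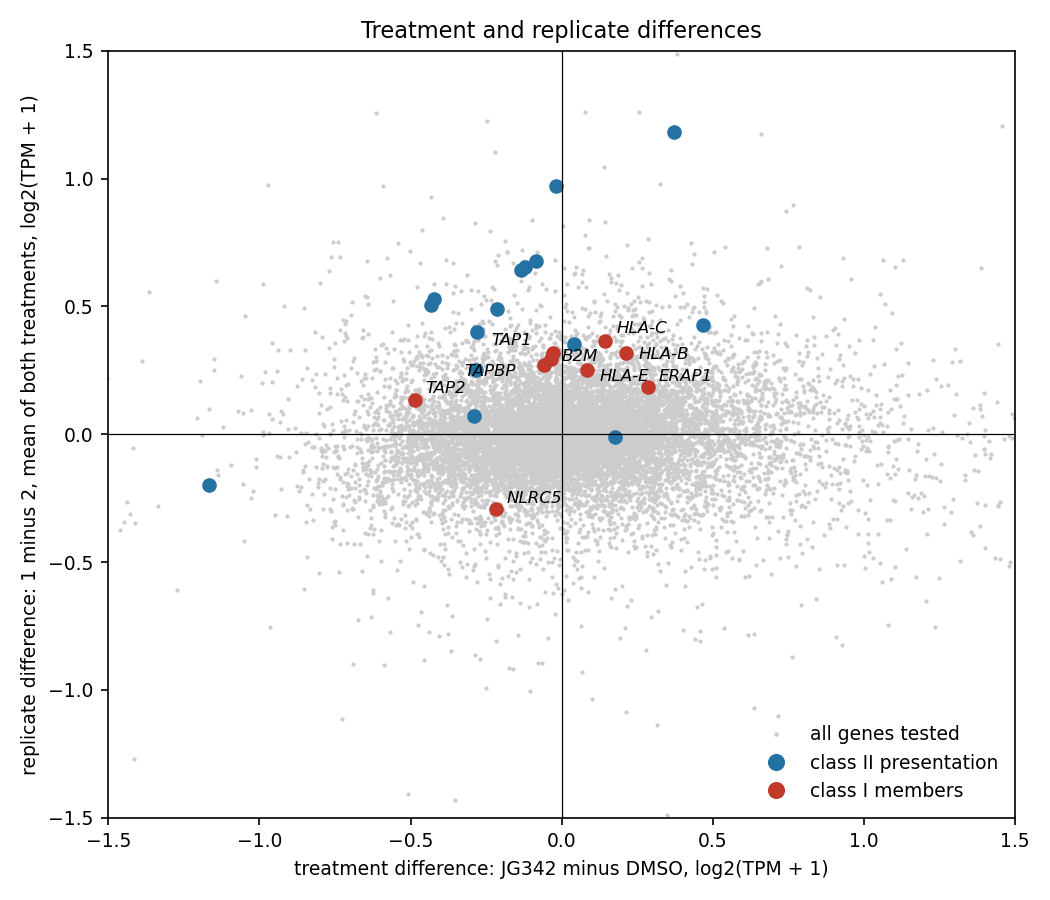
Treatment difference (horizontal, JG342 minus DMSO) against replicate difference (vertical, replicate 1 minus replicate 2, mean of both treatments), both on the log2(TPM + 1) scale, for the members (red), the class II list (blue) and all genes tested (grey; 115 lie outside the axes). TAP2 lies furthest left among the members at −0.48, while B2M, TAP1 and TAPBP sit near 0 horizontally and between 0.27 and 0.32 vertically.

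The promoter stretches of 5 members are shown because they hold the letters through which interferon signalling, the pathway list with the largest share of rises described below, is known to act. RefSeq promoter windows (GRCh38.p14) were found for 7 of the 9 members, and each stretch is the 250 bases before the annotated start, 5′ to 3′ in the direction of the gene. They are reference sequence and not that of MM.1S. Capitals mark matches on either strand to the core of the interferon-stimulated response element (GAAA, any 2 bases, GAAA) or to GAANNGAAA, the form found in classical class I genes.
HLA-B (chr6:31357180-31357429, minus strand): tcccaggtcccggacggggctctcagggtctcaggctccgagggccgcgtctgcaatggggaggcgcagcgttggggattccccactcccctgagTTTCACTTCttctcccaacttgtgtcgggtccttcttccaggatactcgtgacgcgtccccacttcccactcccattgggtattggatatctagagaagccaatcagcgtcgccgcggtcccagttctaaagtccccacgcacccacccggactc
B2M (chr15:44711267-44711516, plus strand): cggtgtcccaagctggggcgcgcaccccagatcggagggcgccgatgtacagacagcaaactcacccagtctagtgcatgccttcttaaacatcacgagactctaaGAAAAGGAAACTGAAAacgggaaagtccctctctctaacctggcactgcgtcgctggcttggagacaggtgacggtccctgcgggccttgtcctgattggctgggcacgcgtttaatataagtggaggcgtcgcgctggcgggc
TAP1 (chr6:32853705-32853954, minus strand): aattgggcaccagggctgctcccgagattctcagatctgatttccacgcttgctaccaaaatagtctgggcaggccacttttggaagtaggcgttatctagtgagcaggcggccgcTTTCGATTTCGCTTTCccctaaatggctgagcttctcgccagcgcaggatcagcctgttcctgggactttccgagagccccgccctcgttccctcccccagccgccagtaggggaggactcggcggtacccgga
TAP2 (chr6:32838740-32838989, minus strand): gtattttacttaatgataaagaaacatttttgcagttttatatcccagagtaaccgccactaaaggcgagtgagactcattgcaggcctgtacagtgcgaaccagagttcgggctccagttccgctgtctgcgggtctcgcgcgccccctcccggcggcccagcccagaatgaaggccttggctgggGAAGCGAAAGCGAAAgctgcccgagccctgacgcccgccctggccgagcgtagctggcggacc
TAPBP (chr6:33314079-33314328, minus strand): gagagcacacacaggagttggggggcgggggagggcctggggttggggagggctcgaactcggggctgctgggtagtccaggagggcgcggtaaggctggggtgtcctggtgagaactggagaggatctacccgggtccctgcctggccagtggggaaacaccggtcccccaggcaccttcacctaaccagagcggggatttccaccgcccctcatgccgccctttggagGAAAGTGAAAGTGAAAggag

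The response element core was found in 4 of the 7 members with a window, B2M, TAP1, TAP2 and TAPBP, and in 3.02% of the 35116 windows of the RefSeq table. Here and below a member was counted if any of its windows matched, while the shares count single windows. TAP1 and ERAP1 have 2 windows each, so the 2 measures are not alike. B2M, TAP1 and TAPBP each hold 2 overlapping copies, starting 144 and 138 bases before the start in B2M, 134 and 128 in TAP1, and 20 and 14 in TAPBP. In TAP2 a copy at 58 bases overlaps a match to GAANNGAAA at 63. The latter form was also found in HLA-B, HLA-C and 1 of 2 windows of ERAP1, and in 6.56% of all windows. TAP2, which fell, and TAP1, which did not pass, both hold the core, and whether it acts in these cells was not tested.

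Further letters of class I promoters were searched in the same way. These letters, like GAANNGAAA, were picked because class I promoters are known to hold them. Their presence in members beside the share of all windows is therefore no test. GGGATTCCC, a binding sequence of NF-kB, was found in HLA-B alone of the 7 members, starting 176 bases before the start, and in 0.362% of windows. TTCNNNGAA, the gamma-activated sequence, was found in TAP1 alone, and in 6.57% of windows. TAP1 has 2 windows in the RefSeq table, and this match lies in the one not printed, at 189 bases before its start, while the printed stretch holds none. CCAAT, bound by NF-Y, was found in 5 of the 7 members, counted by gene, and in 32.0% of single windows. TGACG, a part of the sequence bound by CREB and ATF1, was found in 4 of 7 members and in 21.2% of windows. The HLA-B and HLA-C stretches were 89.0% identical. TAP1 lies head to head with PSMB9, with 488 bases between the nearest annotated starts. PSMB9 had a log2 fold change of −0.02 ± 0.10 SE (adjusted p 0.895 by limma), like TAP1 at −0.03, and PSMB8, which lies between TAP1 and TAP2, had −0.18 ± 0.10 SE (adjusted p 0.237 by limma).

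Interferon receptor signalling leads from the interferon receptors through JAK kinases to STAT factors. Of its 12 listed genes 11 were tested, and 5 rose and none fell, a share of 45.5% against 10.8% of all genes tested as higher. The median log2 fold change was 0.48, against 0.03 for all genes tested and −0.03 for the class I members, and no test between lists was made. This list was chosen with earlier results of these data known, so its share is no test of the pathway. STAT2 rose from 55.0 and 58.5 TPM to 101.9 and 88.5 TPM, by 0.73 ± 0.11 SE (adjusted p 0.00328 by limma). IRF9, which acts with STAT2 in the complex that binds the interferon-stimulated response element, rose from 13.1 and 8.85 TPM to 21.2 and 19.6 TPM, by 0.86 ± 0.18 SE (adjusted p 0.0122 by limma).

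The receptor-bound kinase JAK1 rose by 0.58 and the interferon gamma receptor chain IFNGR1 by 0.48, with limma adjusted p of 0.00754 and 0.0424. STAT2 passed under each of the 13 alternatives. IFNGR1 was not called with quantile normalization (limma adjusted p 0.0758) or without the mean-variance trend (0.0757). Without DMSO replicate 2 the rises of JAK1, IRF9 and IFNGR1 were not called (limma adjusted p 0.0639, 0.0805 and 0.247), and with no filter on low values those of IRF9 and IFNGR1 were not (0.0816 and 0.115). IFNGR1 also lost its call without DMSO replicate 1 (0.0725) and without JG342 replicate 1 (0.166), and after scaling to equal medians (0.0723).

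Over the 84 other listed pathway genes found in the table, 75 were tested, and 10 passed as higher and 4 as lower (18.7%, against 18.4% of all genes tested). After scaling to equal medians the split was 6 higher and 6 lower. Without DMSO replicate 1 the count dropped from 14 to 8, and without DMSO replicate 2 to 5.

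**Figure D4:**
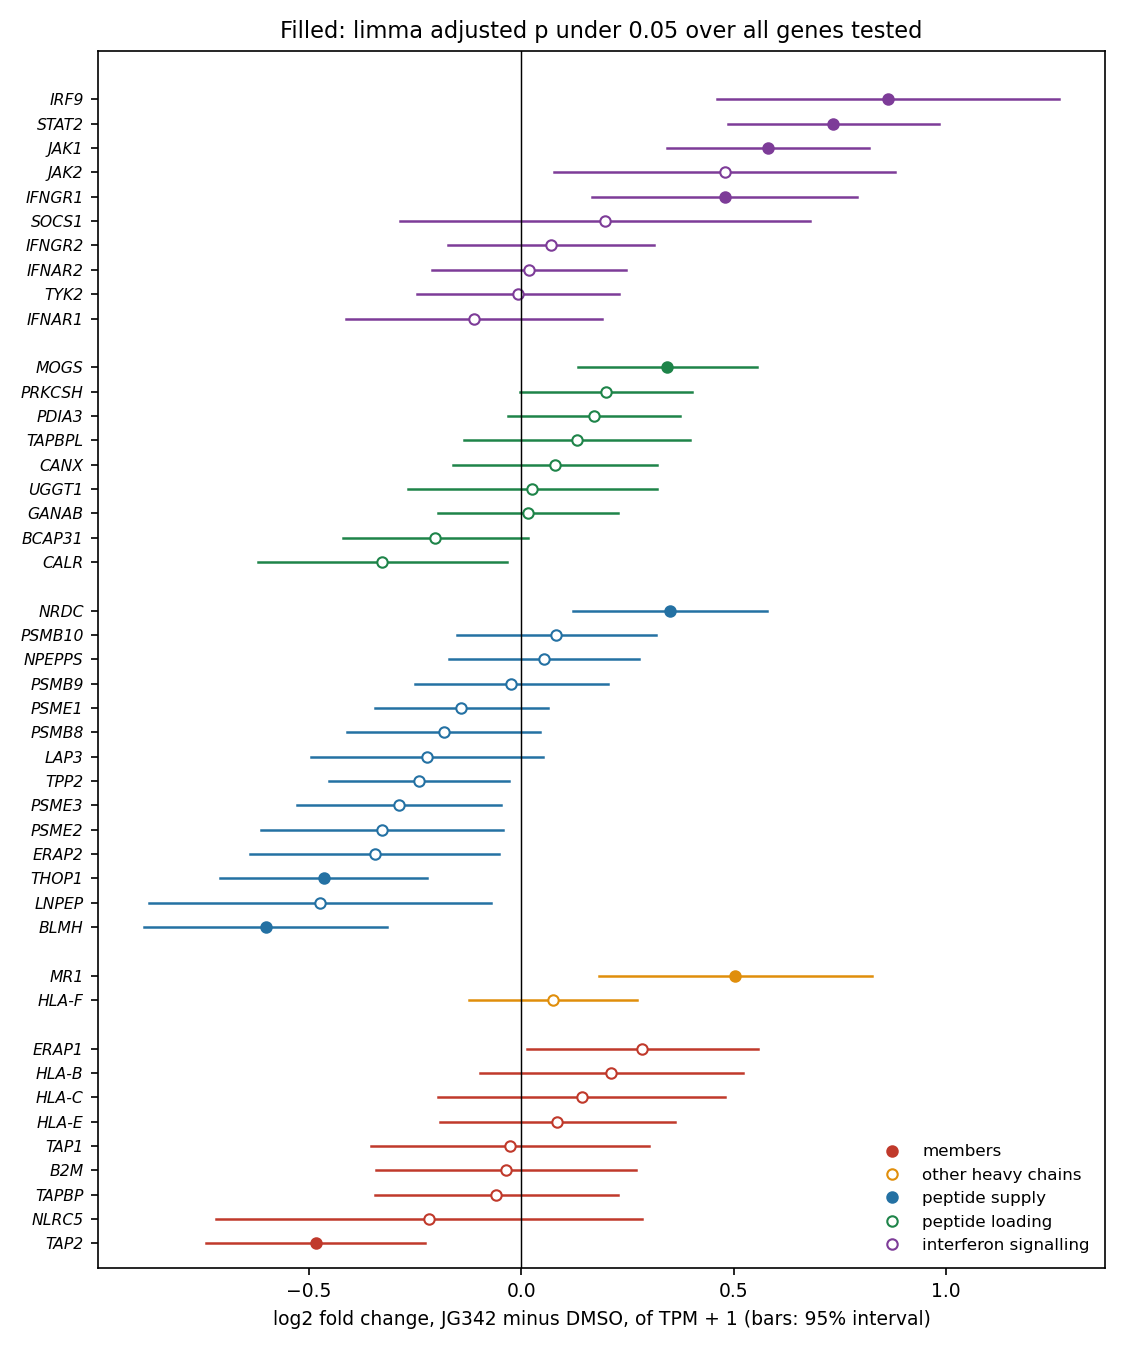
Log2 fold changes of TPM + 1 (JG342 minus DMSO) with 95% intervals for the members and genes of 4 pathway lists, as far as reported here; filled points passed the limma test over all genes. Among the members TAP2 alone is filled, at −0.48, whereas filled interferon signalling genes run from 0.48 for IFNGR1 to 0.86 for IRF9.

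Peptide supply covers the proteasome and peptidases. Of its 14 genes 2 fell, 1 rose and 11 did not pass (21.4% called, against 18.4% of all genes tested). The median log2 fold change was −0.23. With the replicate block 7 passed as lower and 1 as higher, against 15.7% and 19.2% of all genes tested. The added falls were PSME2, PSME3, ERAP2, LNPEP and TPP2. With the block and equal medians the counts were 9 and 1, where 33.1% of all genes tested were called. BLMH, bleomycin hydrolase, fell from 61.9 and 74.1 TPM to 41.3 and 47.5 TPM, by 0.60 ± 0.13 SE (adjusted p 0.0129 by limma). THOP1, a cytosolic oligopeptidase that can destroy class I peptides, fell by 0.47 ± 0.11 SE (adjusted p 0.0188 by limma), and NRDC, the endopeptidase nardilysin, rose by 0.35 ± 0.10 SE (adjusted p 0.0424 by limma). With no filter on low values BLMH, THOP1 and NRDC were not called (limma adjusted p 0.0685, 0.0674 and 0.0916). THOP1 and NRDC were also not called without the mean-variance trend (limma adjusted p 0.0622 and 0.110). Without DMSO replicate 2 none of the 3 was called (limma adjusted p 0.107, 0.145 and 0.239). Without JG342 replicate 1 THOP1 and NRDC were not called (0.0734 and 0.174), nor was NRDC without DMSO replicate 1 (0.0997) or after scaling to equal medians (0.0850).

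The inducible catalytic subunits of the immunoproteasome did not pass in the main fit. With the block and equal medians together PSMB8 passed as lower (limma adjusted p 0.0482). PSMB10 had 214 and 204 TPM with DMSO and 205 and 239 TPM with JG342 (log2 fold change 0.08, limma adjusted p 0.620). PSME2, a subunit of the PA28 activator, had a log2 fold change of −0.33 ± 0.13 SE (adjusted p 0.102 by limma, 0.000316 with the replicate block).

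Folding and loading of the heavy chain had 1 call among 9 genes (11.1%, against 18.4% of all genes tested). It was a rise of MOGS, the glucosidase that begins the trimming of glycans on new glycoproteins, by 0.34 ± 0.09 SE (adjusted p 0.0347 by limma, but 0.0680 after scaling to equal medians and 0.0765 to 0.167 without any 1 library). MOGS also lost its call with no filter on low values (limma adjusted p 0.0587) and without the mean-variance trend (0.0925). CALR, calreticulin of the peptide-loading complex, went from 1458 and 1777 TPM to 1162 and 1416 TPM, with no overlap. Its log2 fold change of −0.33 ± 0.13 SE did not pass (limma adjusted p 0.111). It passed with the replicate block (limma adjusted p 6.76e-05), also when combined with scaling to equal medians (0.0169). Leaving out 1 library moved the log2 fold change of CALR between −0.47 and −0.18. In all, the replicate block called 2 genes of this list as higher and 2 as lower, against 19.2% and 15.7% of all genes tested. PRKCSH and BCAP31 were the added ones besides CALR.

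Factors that act on class I promoters showed 1 rise and 1 fall among 18 genes (11.1% called, against 18.4% of all genes tested). USF2, a helix-loop-helix factor, rose by 0.57 ± 0.10 SE (adjusted p 0.00710 by limma), and EED, a subunit of the repressive complex PRC2, fell by 0.44 ± 0.12 SE (adjusted p 0.0352 by limma). EED was not called with no filter on low values (limma adjusted p 0.0759) or without the mean-variance trend (0.0530). Without DMSO replicate 2 neither was called (limma adjusted p 0.0584 and 0.197), and EED lost its call without each of the other libraries too (from 0.0740 to 0.116). IRF1, the factor that links interferon gamma to class I transcription, had 79.2 and 70.4 TPM with DMSO and 90.4 and 85.8 TPM with JG342, without overlap. Its log2 fold change of 0.23 ± 0.10 SE gave a limma adjusted p of 0.154, of 0.0461 with the replicate block and of 0.164 with the block and equal medians. The block called 3 genes of this list as higher and 2 as lower, against 19.2% and 15.7% of all genes tested. NFYC, IRF1 and EZH2 were the added ones. With equal medians as well the counts were 1 and 5, where 33.1% of all genes tested were called.

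Other heavy chains that can pair with B2M numbered 10 in the table, of which 3 were tested. The replicate block called 2 of them as higher, against 19.2% of all genes tested, and 1 with equal medians as well. MR1, which presents vitamin B metabolites to MAIT cells, rose from 16.8 and 13.5 TPM to 22.2 and 21.3 TPM, by 0.50 ± 0.14 SE (adjusted p 0.0395 by limma). Leaving out any 1 library ended this call (limma adjusted p 0.0512 to 0.254), as did scaling to equal medians (0.0741). MR1 was also not called with no filter on low values (limma adjusted p 0.111), with quantile normalization (0.0808) or without the mean-variance trend (0.0644). HLA-F, a non-classical chain, had 738.5 and 734 TPM with DMSO and 757 and 795 TPM with JG342 (log2 fold change 0.08 ± 0.09 SE, 95% interval −0.12 to 0.27, limma adjusted p 0.587).

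Class II presentation, which shows peptides from endosomes to CD4 T cells, had 15 tested genes. Of these 1 fell and none rose (6.67% called, against 18.4% of all genes tested), with a median log2 fold change of −0.13. With the replicate block 1 passed as higher and 3 as lower, against 19.2% and 15.7% of all genes tested. The protease CTSS was higher (limma adjusted p 0.000104), and IFI30, HLA-DMA (0.000238) and HLA-DMB (0.0444) were lower. With equal medians as well HLA-DMB did not pass (limma adjusted p 0.168) while HLA-DPA1 did (0.0236). For 12 of the 15 genes replicate 1 was above replicate 2 in both treatments, as for 8 of the 9 class I members. HLA-DRA had 644 and 372 TPM with DMSO and 539 and 376 TPM with JG342, with a log2 fold change of −0.12 ± 0.24 SE (adjusted p 0.765 by limma). CIITA, the class II counterpart of NLRC5, had 11.1 and 10.7 TPM with DMSO and 9.04 and 8.37 TPM with JG342 (log2 fold change −0.29 ± 0.14 SE, limma adjusted p 0.185). IFI30, the lysosomal thiol reductase that unfolds antigens, fell from 64.1 and 78.0 TPM to 29.7 and 32.2 TPM, by 1.17 ± 0.13 SE (adjusted p 0.000744 by limma), and passed under each of the 13 alternatives.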

How the data were processed

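RNA sequencing of MM.1S cells gave 1 table with 4 libraries (DMSO and JG342, 2 each). The deposited values are read here as TPM from their column totals and because RSEM 1.2.12 is listed, with HISAT2 2.0.4 and Bowtie2 2.2.5, in the submitters' processing notes; roles, genome build, annotation and filters are not given in the sources used here. TPM keeps no read depth, so no counting intervals are given.

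Values were transformed to log2(TPM + 1), a scale that understates changes of low genes. Of 16057 genes, the 12042 whose mean reached 1 TPM were fitted with limma 3.58.1 in R 4.3.3 (eBayes with trend, treatment as the only term, two-sided), adjusted by Benjamini-Hochberg over all of them at a threshold of 0.05; 4015 genes were left out. All 9 members passed this filter. The fit was also run on simulated data with independently drawn libraries. These held no effect of replicate number, so the run could not test how such an effect bears on the calls. With 2 libraries per group, errors rest on 2 residual and 6.89 prior degrees of freedom. Replicate numbers pair the libraries through a shared prefix in the descriptions; same-numbered deviations from the group means correlated across genes at r = 0.27. The block fit has 1 residual degree of freedom and an infinite prior.

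The members and lists were chosen with earlier results of these data known. Named are all members, every listed gene past the threshold, further listed genes whatever their values, and the 5 genes nearest to the members' mean profile. HLA-G, HLA-DRA, CD74, ERAP2, PSME2, MICB, the marker genes and the listed genes called only with the block were chosen after their values were seen. Some listed genes are counted but not reported here. Transcripts of GENCODE release 29 were compared with BLAST 2.17.0, and promoters aligned with Biopython 1.88. The alternatives changed the filter, pseudocount, scaling, block, variance trend or libraries.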

Additional observations from a re-analysis of the deposited data

How the results depend on the processing

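The count of genes past the threshold (2221) was 828 with no filter on low values. With the replicate block 4207 passed and with the block and equal medians 3985, and leaving out 1 library gave 767 to 1825. The count of members called by limma (1) was 0 with no filter and 0 without the variance trend, where 1 member in each had an unadjusted p under 0.05. It was 3 with the replicate block, and 0 to 1 without 1 library. The counts of 0 came without DMSO replicate 1, DMSO replicate 2 or JG342 replicate 2, where 2, 1 and 4 members had an unadjusted p under 0.05. The 14 other pathway genes became 6 with no filter, 8 without the trend, 30 with the replicate block (16 higher, 14 lower), 32 with the block and equal medians (12 higher, 20 lower) and 5 to 13 without 1 library. The lone library of a group was assumed to vary like the others.

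Leaving out 1 library turned the sign of 6 members, with log2 fold changes from −0.053 to 0.34 for HLA-C, −0.063 to 0.23 for HLA-E, −0.19 to 0.12 for B2M, −0.19 to 0.14 for TAP1, −0.21 to 0.095 for TAPBP and −0.45 to 0.019 for NLRC5. The sign also turned for PSMB9 (−0.054 to 0.0065), PSMB10 (−0.027 to 0.19), HLA-DRA (−0.51 to 0.27), CD74 (−0.21 to 0.29), FZD3 (−0.12 to 0.11), MTMR4 (−0.16 to 0.12), ZNF280C (−0.11 to 0.11), PLCG1 (−0.12 to 0.14) and NUPL2 (−0.13 to 0.086). With equal medians, alone or with the block, CD74 was −0.027, ZNF280C −0.056 and PLCG1 −0.057; with quantile normalization they were −0.0061, −0.11 and −0.039. None of these passed in any setting, and the cause was not tested. HLA-B (0.040 to 0.38), ERAP1 (0.15 to 0.42) and TAP2 (−0.59 to −0.38) kept their signs.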

Other observations

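Ligands of NKG2D, class I-like stress proteins that need neither B2M nor peptide, held 1 rise among 5 tested genes. That is 20%, against 10.8% of all genes tested as higher. ULBP1 had 0.16 and 0.50 TPM with DMSO and 3.54 and 3.70 TPM with JG342. It rose by 1.81 ± 0.22 SE (log2, adjusted p 0.00137 by limma) and passed under each of the 12 alternatives that tested it. It entered the test only through its JG342 values. MICB, a stress ligand encoded near HLA-B, had 89.9 and 111.4 TPM with DMSO and 83.9 and 91.2 TPM with JG342 (limma adjusted p 0.305).

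HLA-G, the chain of the placenta, was listed at 0 in both DMSO libraries and at 1.06 and 0.65 TPM with JG342. It was not tested because of its low mean.

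TAP2 was 1 of 7 genes called lower among 95 tested genes of the MHC region from HLA-F to TAPBP, by their order in RefSeq. A further 7 were called higher, which makes 14.7% called against 18.4% of all genes tested, with a median log2 fold change of 0.01.

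The genes outside the lists whose deviations over the 4 libraries lay nearest to the members' mean profile were FZD3, MTMR4, ZNF280C, PLCG1 and NUPL2, at Euclidean distances of 0.0222 to 0.0285 on the log2 scale. Each had replicate 1 above replicate 2 in both treatments, which follows from their choice by this profile.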
